A study of Mus musculus with 4 samples.

Results

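The collagen and laminin genes of the mouse were followed across the cell classes of the pituitary gland. They were chosen by name from the gene annotation of the count files: a symbol of Col, a number, a and a number, or of Lama, Lamb or Lamc and a number, with nothing after it. This gave 55 of 32285 genes, 44 collagen genes and 11 laminin genes. No measured value entered the rule.

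Collagens are proteins of 3 chains wound around each other, and laminins are cross-shaped proteins of 1 alpha, 1 beta and 1 gamma chain. Collagen IV and the laminins form the 2 sheets of the basement membrane that lies under epithelial cells, around vessels and around the cords of hormone cells in the pituitary. Fibrillar collagens such as I, III and V form the fibres of the connective tissue between the cords, and a group of collagens with a membrane anchor, among them XIII, XVII, XXIII and XXV, sits in the surface of cells.

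The data were single-nucleus RNA counts of 4 pituitary libraries from wild-type UM-HET3 mice, a genetically mixed stock. Males and females had 1 library each by label at 22 months of age, and likewise at 5 months. Every library held nuclei pooled from 3 snap-frozen glands, so each labelled group was 1 library. The question set by this design was how the genes differ by labelled age and by labelled sex, and the series as a whole concerns aging of pituitary stem cells. Per library 7765 to 13595 barcodes were deposited with 33328821 to 65773807 counted transcripts (unique molecular identifiers, UMIs), 13 to 23 barcodes were shared between any 2 libraries, and 6470 to 10135 nuclei were kept with a median of 3452 to 4723 UMIs.

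The sex labels did not match the sex-linked transcripts. Xist, the RNA of the inactive X chromosome, was found in 97.4% (95% Wilson interval 97.1 to 97.7%) of nuclei in the library labelled 22-month males and in 85.7% (84.8 to 86.5%) in that labelled 22-month females, against 0.0992% (0.0480 to 0.205%) in that labelled 5-month males and 0.216% (0.129 to 0.363%) in that labelled 5-month females. At least 1 of 4 Y-linked genes was found in 0.207% (0.136 to 0.317%) and 0.281% (0.182 to 0.434%) of nuclei of the libraries labelled 22-month males and 22-month females, against 85.6% (84.8 to 86.4%) and 84.3% (83.3 to 85.1%) in those labelled 5-month males and 5-month females. Intervals here cover counting error only. Both libraries labelled 22-month were therefore high in Xist and both labelled 5-month were high in Y-linked genes, and labelled age and the sex-linked state cannot be told apart in any result below. The groups are called throughout by their labels.

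Nuclei were grouped by transcripts into 11 classes large enough to compare, with the collagen and laminin genes left out of the grouping, and each class was named from marker genes. The endocrine classes were lactotrope-like (12493 nuclei, prolactin cells), somatotrope-like (9747, growth hormone cells), melanotrope-like (2020), gonadotrope-like (1031), thyrotrope-like (753) and corticotrope-like (724). The other classes were stem-like (1680), fibroblast-mural-like (461), endothelial-like (409), macrophage-like (283) and pituicyte-like (236), the last being glial cells of the posterior lobe. Levels are given as CPM, the count scaled to a fixed total of UMIs, of the summed counts of a class in a library. These counts are not divided by gene length, and nuclear counts of long genes can include unspliced transcripts, so levels are compared between classes and libraries for 1 gene and not between genes. A class sum does not separate fewer expressing nuclei from less RNA in each.

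Most of these genes were highest outside the hormone cells. Of the 55 genes, 52 had at least 50 counts over the 11 classes, and 44 of these were highest on average in a class that is not endocrine: 27 in fibroblast-mural-like nuclei, 7 in pituicyte-like, 6 in endothelial-like and 4 in stem-like nuclei. The other 8 were highest in an endocrine class: Lama1, Col2a1 and Col7a1 in gonadotrope-like nuclei, Col24a1 and Col10a1 in thyrotrope-like nuclei, Col11a1 in corticotrope-like nuclei, Col19a1 in melanotrope-like nuclei and Col17a1 in somatotrope-like nuclei. None was highest in lactotrope-like or macrophage-like nuclei. The highest class was the same in all 4 libraries for 31 genes, and 26 genes exceeded every other class in every library. Of those highest on average in an endocrine class, Col19a1 and Col24a1 had that class highest in all 4 libraries. Col2a1 and Col11a1 had it highest in 2, and Col10a1 and Col17a1, averaging 2.12 and 1.63 CPM there, in 1. Col7a1, with 2.03 CPM in gonadotrope-like against 1.80 in fibroblast-mural-like nuclei, had it highest in 0. Col22a1, Col6a4 and Col6a5 had 39, 20 and 6 counts and are not ranked.

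Summed over all 55 genes, the level averaged 12758 ± 855 CPM in pituicyte-like nuclei, 9203 ± 804 in fibroblast-mural-like, 2972 ± 418 in endothelial-like and 1382 ± 170.1 in stem-like nuclei (SD, n = 4 libraries, as for every mean ± SD of a level below). In the endocrine classes it averaged between 455 ± 51.3 CPM for melanotrope-like and 1053 ± 135 CPM for gonadotrope-like nuclei. Of the pituicyte-like sum, 9388 CPM came from Col25a1 alone, and without it the sum was 3370.1 CPM. Lama1 alone gave 553 CPM of the gonadotrope-like sum. The lowest fibroblast-mural-like library stood at 8407 CPM and the highest gonadotrope-like one at 1204 CPM. Classes are clusters of the same nuclei, so differences between classes are given as values with no test.

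**Figure D1:**
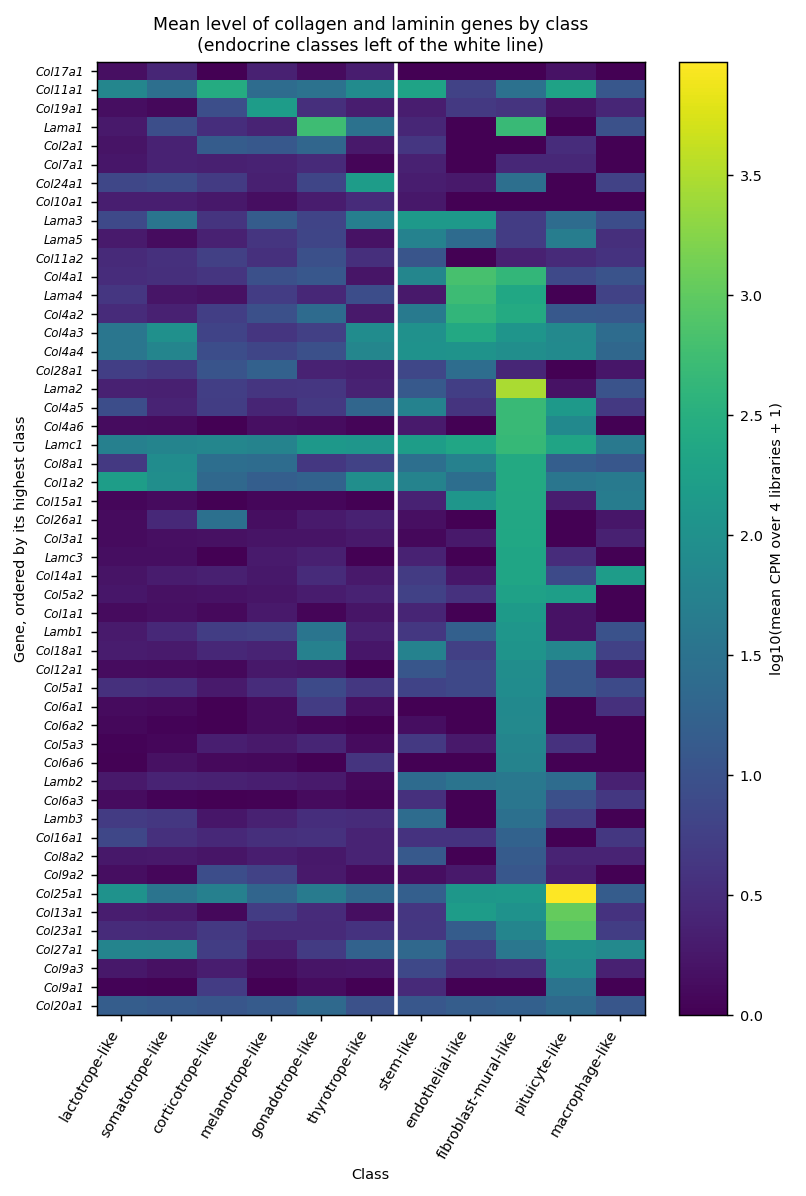
Mean level of genes with at least 50 counts (rows, ordered by highest class) in the 11 classes (columns), shown by colour as log10 of the mean CPM over 4 libraries plus 1, with the endocrine classes left of the white line. Most rows are brightest to the right of the line, and 8 are brightest to its left.

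Collagen IV has 6 chains, which assemble as alpha 1 with alpha 2, as alpha 3, 4 and 5, or as alpha 5 with alpha 6, and their genes lie in 3 head-to-head pairs. In the GENCODE M21 annotation (mm10) the starts of Col4a1 (minus strand, 11312826) and Col4a2 (plus strand, 11312805) are 21 bases apart on chromosome 8, those of Col4a3 (plus strand, 82586921) and Col4a4 (minus strand, 82586849) 72 bases apart on chromosome 1, and those of Col4a5 and Col4a6 1309 bases apart on chromosome X. Across the 44 sums of a class in a library, the Spearman correlation of the CPM of the pair was 0.87 for Col4a1 with Col4a2, 0.90 for Col4a3 with Col4a4 and 0.55 for Col4a5 with Col4a6. The points share libraries and classes, so these values are descriptions, as is 0.47 for Col1a1 with Col1a2.

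The promoter windows of the genes the results turn on are shown because the pairs share their start region and because Col25a1 and Col1a2 passed the test below in several classes. Each is the RefSeq window of build GRCm38.p6 from 250 bases before to 50 bases after the start, on the strand of the gene: Col4a1 at chr8:11312777-11313076 (minus), Col4a2 at chr8:11312555-11312854 (plus), Col4a4 at chr1:82586800-82587099 (minus), Col25a1 at chr3:130180595-130180894 (plus) and Col1a2 at chr6:4505368-4505667 (plus). RefSeq starts can differ from those of GENCODE M21, where Col25a1 begins at 130131501 and Col1a2 at 4504814, both before the windows shown. Capitals mark the motifs CCAAT and GGGCGG on either strand.
Col4a1: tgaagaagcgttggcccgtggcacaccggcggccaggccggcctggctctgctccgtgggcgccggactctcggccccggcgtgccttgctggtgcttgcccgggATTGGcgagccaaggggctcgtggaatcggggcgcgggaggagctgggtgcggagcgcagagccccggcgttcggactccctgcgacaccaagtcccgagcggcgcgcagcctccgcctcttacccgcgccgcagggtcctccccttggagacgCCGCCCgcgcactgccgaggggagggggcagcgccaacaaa
Col4a2: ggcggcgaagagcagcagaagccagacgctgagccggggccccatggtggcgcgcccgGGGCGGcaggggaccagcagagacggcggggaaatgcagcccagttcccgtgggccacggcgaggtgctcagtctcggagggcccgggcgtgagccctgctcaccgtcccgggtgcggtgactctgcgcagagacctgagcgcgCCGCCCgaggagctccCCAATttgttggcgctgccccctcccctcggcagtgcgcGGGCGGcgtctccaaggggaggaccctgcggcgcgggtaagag
Col4a4: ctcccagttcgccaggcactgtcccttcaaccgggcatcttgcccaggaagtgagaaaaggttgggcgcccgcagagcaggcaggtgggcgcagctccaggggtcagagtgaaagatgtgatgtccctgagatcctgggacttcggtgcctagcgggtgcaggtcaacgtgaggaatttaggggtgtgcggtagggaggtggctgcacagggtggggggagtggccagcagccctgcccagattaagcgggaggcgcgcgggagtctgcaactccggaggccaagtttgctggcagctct
Col25a1: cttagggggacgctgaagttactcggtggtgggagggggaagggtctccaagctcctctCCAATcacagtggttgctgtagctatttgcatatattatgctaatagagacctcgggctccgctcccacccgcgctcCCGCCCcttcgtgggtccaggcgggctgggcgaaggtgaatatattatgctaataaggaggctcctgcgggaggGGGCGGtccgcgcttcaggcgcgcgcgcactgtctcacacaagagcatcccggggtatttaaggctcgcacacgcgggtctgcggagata
Col1a2: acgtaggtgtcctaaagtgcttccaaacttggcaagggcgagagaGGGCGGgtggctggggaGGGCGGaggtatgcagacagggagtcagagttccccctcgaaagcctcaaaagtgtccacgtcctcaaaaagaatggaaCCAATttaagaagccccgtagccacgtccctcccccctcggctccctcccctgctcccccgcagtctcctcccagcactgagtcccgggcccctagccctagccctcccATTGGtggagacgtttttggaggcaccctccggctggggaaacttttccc
The Col4a1 and Col4a2 windows overlap by 78 bases and have 74% and 73.7% G and C. The Col4a1 window holds 1 CCAAT and 1 GGGCGG, the Col4a2 window 1 and 3, the Col25a1 window 1 and 2 and the Col1a2 window 2 and 2, and the Col4a4 window holds neither. TATAAA is in none of the 5. Among all 32851 windows of that length, 37.4% hold CCAAT, 35.7% GGGCGG and 13.6% TATAAA on either strand, and among the 44 windows of the 40 collagen and laminin genes with an entry, 14, 26 and 5 windows do (31.8%, 59.1% and 11.4%). A match is a run of letters and not a site.

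Col4a1 and Col4a2, the chains of basement membranes throughout the body, were highest in endothelial-like nuclei. Col4a1 averaged 658 ± 127 CPM there, 425 ± 128 in fibroblast-mural-like and 66.4 ± 9.96 in stem-like nuclei, and at most 10.8 in an endocrine class. Col4a2 averaged 409 ± 98.8, 268 ± 64.7 and 43.1 ± 7.98 CPM in the same 3 classes, and at most 23.9 in an endocrine class, the gonadotrope-like one in both cases. The libraries of endothelial-like and fibroblast-mural-like nuclei overlapped for both genes, while every stem-like library stayed below both classes. The 2 genes overlap by their first bases on opposite strands, and whether the counting used the strand was not stated.

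Col4a3 and Col4a4, chains of the specialised basement membrane best known from the kidney glomerulus, were also found in hormone cells. Col4a3 averaged 248 ± 40.6 CPM in endothelial-like and 99.6 ± 18.8 in stem-like nuclei, and Col4a4 108 ± 16.5 and 104 ± 24.6 CPM. Somatotrope-like nuclei held 71.0 to 126 CPM of Col4a3 and 44.2 to 81.7 CPM of Col4a4 over the 4 libraries. Thyrotrope-like nuclei held 57.1 to 104 and 39.2 to 103 CPM. In lactotrope-like nuclei both genes were low in the libraries labelled 22-month and closer to the somatotrope-like level in those labelled 5-month, as described below.

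Col4a5 and Col4a6 were highest in fibroblast-mural-like nuclei, at 488 ± 99.3 and 488 ± 127 CPM. Pituicyte-like nuclei followed with 142 ± 47.4 CPM of Col4a5 and 77.1 ± 38.5 CPM of Col4a6. Col4a5 was also found in stem-like nuclei, at 56.5 ± 17.5 CPM, where Col4a6 averaged 0.923 CPM. Col4a6 had no count in the 928082 UMIs of endothelial-like nuclei, which allows up to 3.23 CPM (3 counts).

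**Figure D2:**
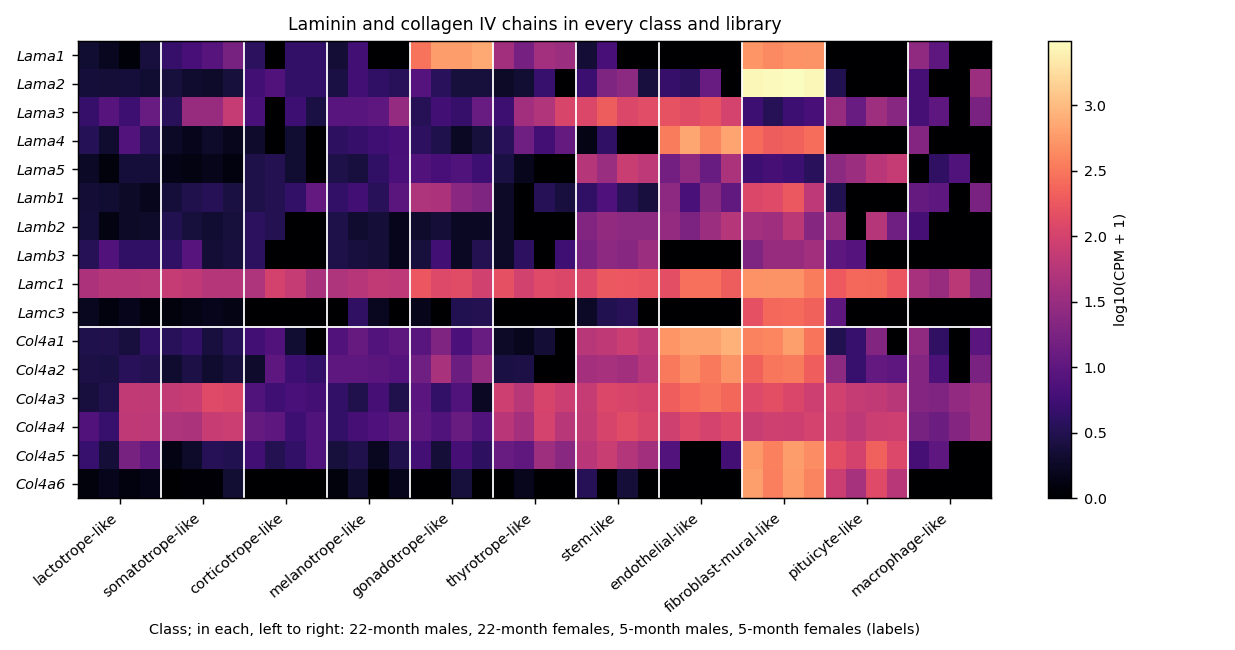
Level of laminin and collagen IV chains (rows) in every class and library (columns, grouped by class, labelled 22-month libraries left of labelled 5-month ones), shown by colour as log10(CPM + 1). Col4a1, Col4a2 and Lama4 are brightest in endothelial-like nuclei, Lama2, Col4a5 and Col4a6 in fibroblast-mural-like nuclei, and Lama1 in gonadotrope-like and fibroblast-mural-like nuclei.

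Of the fibrillar collagens, Col1a1, Col1a2, Col3a1 and the collagen V chains all averaged highest in fibroblast-mural-like nuclei. Col1a1, the major chain of collagen I, averaged 145 ± 53.6 CPM there and at most 1.53 CPM in any other class, the stem-like one. Col3a1, the chain of collagen III of loose connective tissue, averaged 229 ± 51.8 CPM there. Col5a1, Col5a2 and Col5a3, which join collagen I fibres, averaged 85.3 ± 17.8, 185 ± 30.4 and 62.6 ± 30.8 CPM. Col5a2 also averaged 165 ± 62.2 CPM in pituicyte-like nuclei, whose libraries overlapped those of fibroblast-mural-like nuclei.

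Col1a2, the partner chain of Col1a1, was also found in hormone cells. It averaged 257 ± 58.5 CPM in fibroblast-mural-like nuclei, 159.9 ± 106 in lactotrope-like, 90.0 ± 39.8 in somatotrope-like, 90.0 ± 37.6 in thyrotrope-like and 58.7 ± 7.66 in stem-like nuclei. In lactotrope-like nuclei Col1a1 stood at 0.160 to 0.495 CPM over the 4 libraries. A gene model, Gm43921, overlaps Col1a2 on the same strand, and how the counting treated it was not stated.

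Collagen VI forms beaded filaments around cells, and the 4 of its chains with at least 50 counts were highest in fibroblast-mural-like nuclei. Col6a1, Col6a2, Col6a3 and Col6a6 averaged 74.7 ± 12.9, 74.0 ± 16.4, 35.4 ± 12.3 and 58.0 ± 20.3 CPM there. The next class averaged 4.09 CPM for Col6a1 (gonadotrope-like), 0.403 for Col6a2 (stem-like), 8.45 for Col6a3 (pituicyte-like) and 2.99 for Col6a6 (thyrotrope-like).

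The laminin alpha chains, which carry sites that bind cells, peaked in different classes. Lama2, the chain of muscle and nerve basement membranes, averaged 2899 ± 137 CPM in fibroblast-mural-like nuclei, and the next class, stem-like, averaged 12.0 CPM. Lama4, a chain of vessel walls, averaged 525 ± 184 CPM in endothelial-like and 234 ± 31.3 in fibroblast-mural-like nuclei, without overlap between their libraries. Lama5, a chain of adult epithelia, averaged 56.9 ± 20.3 CPM in stem-like and 47.6 ± 23.2 in pituicyte-like nuclei, whose libraries overlapped.

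Lama1, the main alpha chain of the early embryo, was highest in gonadotrope-like nuclei. It averaged 553 ± 181 CPM there and 487 ± 39.9 in fibroblast-mural-like nuclei, with overlapping libraries. Thyrotrope-like nuclei averaged 30.8 ± 10.9 CPM and somatotrope-like nuclei 7.99 ± 5.25. Lama3, the alpha chain that anchors skin, averaged 139.9 ± 39.1 CPM in stem-like and 137 ± 26.6 in endothelial-like nuclei, with overlap. In somatotrope-like and thyrotrope-like nuclei it spread widely over the libraries, at 2.56 to 73.6 and 4.22 to 109 CPM.

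Among the gamma and beta chains, Lamc1, shared by most laminins, was found in every class, from 39.2 ± 15.6 CPM in macrophage-like to 463 ± 75.7 in fibroblast-mural-like nuclei. Lamb3 averaged 28.8 ± 8.13 CPM in fibroblast-mural-like and 23.9 ± 7.24 in stem-like nuclei, with overlap. Hsd11b1 and other genes overlap Lamb3. Lamb1 averaged 121 ± 48.3 CPM in fibroblast-mural-like and 33.8 ± 15.6 in gonadotrope-like nuclei, and Lamb2 38.6 ± 16.3 and 33.1 ± 15.3 CPM in fibroblast-mural-like and endothelial-like nuclei. Lamc3 averaged 215 ± 46.3 CPM in fibroblast-mural-like nuclei and had no count in corticotrope-like, thyrotrope-like, endothelial-like or macrophage-like nuclei.

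Col25a1, Col13a1 and Col23a1, collagens with a membrane anchor, were highest in the pituicyte-like class. Col25a1, known from neurons and from amyloid plaques, averaged 9388 ± 1164 CPM there, and the next class, fibroblast-mural-like, averaged 128 CPM. Col13a1 averaged 1076 ± 145 CPM in pituicyte-like and 158 ± 25.8 in endothelial-like nuclei, and Col23a1 826 ± 416 CPM in pituicyte-like and 62.6 ± 24.0 in fibroblast-mural-like nuclei. Col17a1, of the skin hemidesmosome, averaged at most 1.63 CPM, in somatotrope-like nuclei. Col9a3 and Col9a1, cartilage chains, were also highest in pituicyte-like nuclei, at 79.2 ± 13.3 and 33.3 ± 24.8 CPM.

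Several minor collagens peaked in 1 endocrine class or came second there. Col19a1 averaged 156 ± 23.5 CPM in melanotrope-like nuclei and at most 8.09 in another class. Col24a1, a fibrillar collagen, averaged 156 ± 37.0 CPM in thyrotrope-like and 26.8 ± 21.0 in fibroblast-mural-like nuclei. Col11a1, a cartilage fibril chain, averaged 272 ± 54.5 CPM in corticotrope-like, 202 ± 47.0 in stem-like and 194 ± 97.2 in pituicyte-like nuclei, where the libraries overlapped. Col26a1 averaged 28.3 ± 18.2 CPM in corticotrope-like nuclei, second to 241 ± 89.6 in fibroblast-mural-like nuclei. Col8a1, a chain of vessel and corneal membranes, averaged 83.7 ± 38.9 CPM in somatotrope-like nuclei, second to 262 ± 67.9 in fibroblast-mural-like nuclei.

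Gonadotrope-like nuclei averaged 19.2 ± 14.1 CPM of Col2a1, the cartilage collagen, and 55.3 ± 25.4 CPM of Col18a1, the source of endostatin, which averaged 114 ± 22.2 in fibroblast-mural-like nuclei. Col27a1, a fibrillar collagen, averaged 61.2 ± 11.0 CPM in lactotrope-like and 59.4 ± 15.6 in somatotrope-like nuclei, against 95.9 ± 26.0 in pituicyte-like and 74.0 ± 31.5 in macrophage-like nuclei, and Col16a1 averaged 5.94 ± 1.98 CPM in lactotrope-like nuclei, second to 16.4 ± 11.2 in fibroblast-mural-like nuclei. Col12a1, which binds fibrils as well, averaged 89.1 ± 41.5 CPM in fibroblast-mural-like and 10.6 ± 6.71 in stem-like nuclei. Macrophage-like nuclei averaged 155 ± 93.2 CPM of Col14a1, which binds fibrils, and fibroblast-mural-like nuclei 213 ± 165, with overlapping libraries. Col15a1, found beside vessel basement membranes, averaged 245 ± 106 CPM in fibroblast-mural-like and 122 ± 62.7 in endothelial-like nuclei.

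The fibroblast-mural-like class split into 6 subgroups of 19 to 113 nuclei when clustered alone. Their values pool the libraries and are a description. In the subgroup of 104 nuclei with the highest Pdgfra and Dcn, fibroblast markers (1487 and 2847 CPM), Lama2 stood at 4083, Col4a6 at 1086, Col4a5 at 944, Col15a1 at 633 and Col26a1 at 539.8 CPM. In the subgroup of 28 nuclei with the highest Rgs5 and Abcc9, pericyte markers (1847 and 1709 CPM), the same 5 genes stood at 1875, 68.9, 82.7, 55.1 and 27.6 CPM. Lamc3 and Col4a3 were highest in the subgroup of 28, at 538 and 372 CPM, and Col14a1 was highest in one of 94 nuclei, at 754 CPM. Col25a1 stood at 523 CPM in a subgroup of 103 nuclei and at 6.56 to 162 CPM in the other 5.

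The libraries labelled 22-month were then compared with those labelled 5-month in each class. Of 2 values given for an age label, the first is from the library labelled males. Changes are log2 fold changes with their SE from edgeR's quasi-likelihood test, with the Benjamini-Hochberg adjusted p over all genes tested in the class and a threshold of 0.05, and an adjusted p in brackets after a library is that of the fit without it. That fit had the tested label alone as a term, so a call lost in it cannot be put down to the library alone. The main fit has labelled sex as a second term and 1 residual degree of freedom, so its p-values rest mostly on a spread shared over genes. The weight of that shared spread, as prior degrees of freedom, ran from 5.77 in macrophage-like to 147.5 in pituicyte-like nuclei. It was infinite in corticotrope-like, fibroblast-mural-like, melanotrope-like and stem-like nuclei, where the spread of the gene itself had no weight. A small p therefore does not show that the libraries of 1 label were close for that gene. Libraries are pools, so p-values do not measure the spread between mice. In the 6 endocrine classes, 30 of 118 tests of the genes passed, 16 higher and 14 lower, and over all genes 9.7% of tests passed, 5.46% higher and 4.24% lower. In the 5 other classes 6 of 84 passed, 3 higher and 3 lower, and over all genes 2.83%, 1.5% higher and 1.33% lower. Of the 36 calls, 34 had libraries that did not overlap between the labels. The test itself favours such genes and the share over all called genes was not counted, so this is no separate support. The 30 calls in endocrine classes were 15 with DESeq2 and fewer with 1 library left out. Over all genes calls fell as well, in lactotrope-like nuclei from 3925 of 16432 to 1907 of 24728 with DESeq2.

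**Figure D3:**
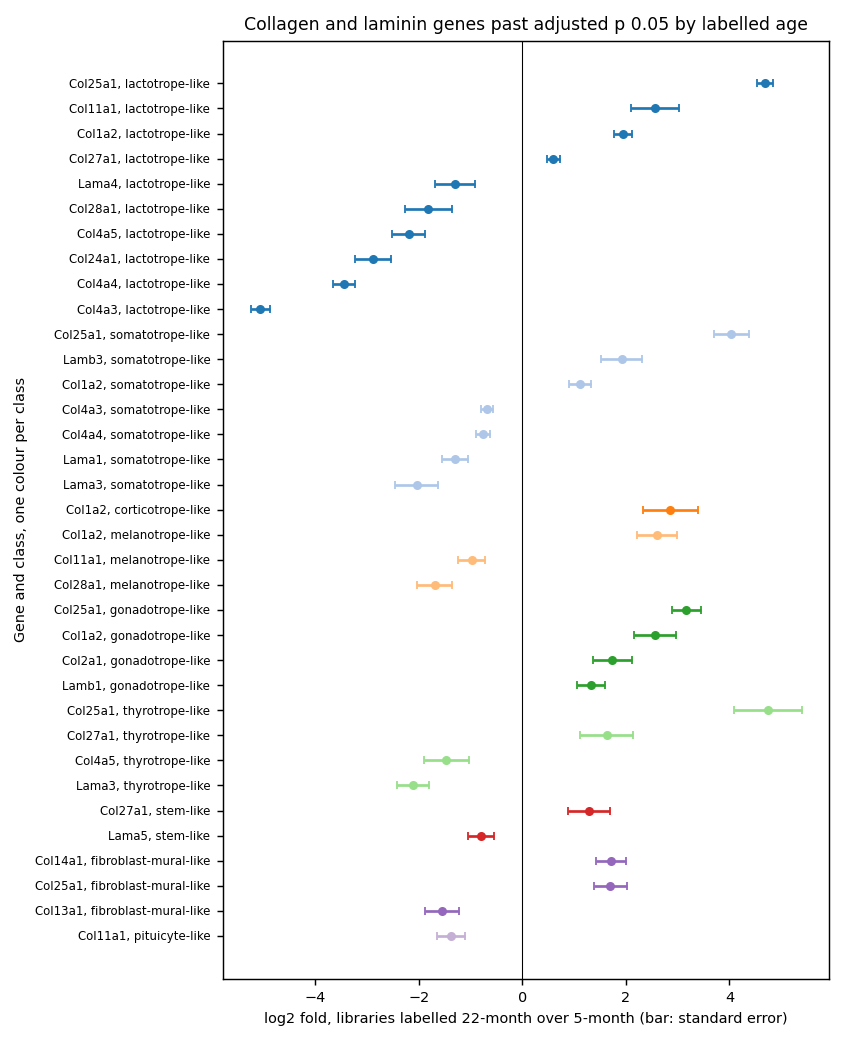
Log2 fold change of the libraries labelled 22-month over those labelled 5-month for genes past the threshold, by class, with the SE as bars. Col25a1 and Col1a2 lie to the right of 0 wherever they passed, and Col4a3 and Col4a4 to the left.

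Col25a1 rose with labelled age in 4 endocrine classes. In lactotrope-like nuclei it had 136 and 261 CPM in libraries labelled 22-month against 5.08 and 12.9 CPM in those labelled 5-month, from 3020 and 4893 against 37 and 116 counts (4.68 ± 0.16, adjusted p = 4.04e-07). In somatotrope-like nuclei it had 37.7 and 86.1 CPM in libraries labelled 22-month against 4.04 and 2.94 CPM in those labelled 5-month (4.04 ± 0.34, adjusted p = 0.00109). In gonadotrope-like nuclei it had 77.5 and 80.1 CPM in libraries labelled 22-month against 7.97 and 11.1 CPM in those labelled 5-month (3.17 ± 0.28, adjusted p = 5.65e-07). The libraries of the 2 labels did not overlap in these 3 classes, and each call held with each library left out.

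In thyrotrope-like nuclei Col25a1 had 40.5 and 37.4 CPM in libraries labelled 22-month against 2.47 and 0 CPM in those labelled 5-month, from 48 and 63 against 2 and 0 counts (4.75 ± 0.65, adjusted p = 2.74e-08). This call rests on 2 counts on the 5-month side and was lost without the library labelled 5-month males (0.0757) or 5-month females (0.131). In corticotrope-like and melanotrope-like nuclei the changes of 1.0 ± 0.32 and 0.78 ± 0.29 did not pass (adjusted p = 0.0674 and 0.120). In pituicyte-like nuclei, its highest class, Col25a1 had 9113 and 11099.6 CPM in libraries labelled 22-month against 8556 and 8784 CPM in those labelled 5-month, and the change did not pass (0.15 ± 0.27, adjusted p = 0.885). Whether the change differs between classes was not tested.

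Lactotrope transcripts moved with Col25a1 outside lactotrope-like nuclei. The 5 lactotrope markers, which include Prl, the prolactin gene, summed to 51298 and 20366.5 CPM in libraries labelled 22-month against 6906 and 3851 CPM in those labelled 5-month in somatotrope-like nuclei, with 3 higher and 1 lower in both libraries labelled 22-month. In thyrotrope-like nuclei the sum was 41508 and 15309.5 CPM in libraries labelled 22-month against 6122 and 3313 CPM in those labelled 5-month, with 3 higher and 1 lower, and in gonadotrope-like nuclei 34523 and 13969 CPM in libraries labelled 22-month against 6509 and 3087 CPM in those labelled 5-month, with 3 higher and none lower. Nearly all of each sum was Prl, with 51225 and 20269 CPM in libraries labelled 22-month against 6887 and 3823 CPM in those labelled 5-month in somatotrope-like nuclei. There Angpt1 had 62.9 and 76.7 CPM in libraries labelled 22-month against 8.31 and 11.7 CPM in those labelled 5-month, and Agtr1a was the marker that was lower. No marker was at 0 in these classes. The sum was higher in both libraries labelled 22-month in each of the 11 classes, and its part in the Col25a1 calls was not tested.

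The levels of pituicyte genes and the make-up of the clusters are given beside this result. The 6 pituicyte markers summed to 8.45 and 3.36 CPM in libraries labelled 22-month against 3.29 and 4.68 CPM in those labelled 5-month in lactotrope-like nuclei, with 1 higher and 2 lower in both libraries labelled 22-month and none at 0, while their sum in pituicyte-like nuclei was 3067 and 4065 CPM in libraries labelled 22-month against 4426 and 4056 CPM in those labelled 5-month. In somatotrope-like nuclei the pituicyte marker sum was 4.01 and 2.56 CPM in libraries labelled 22-month against 3.11 and 2.28 CPM in those labelled 5-month. There 2 markers were higher in both libraries labelled 22-month and none lower. In the same order it was 2.42, 2.65, 3.62 and 1.47 CPM in gonadotrope-like and 2.53, 1.19, 2.47 and 2.98 CPM in thyrotrope-like nuclei. In these 2 classes no marker was higher or lower in both. Col13a1 and Col23a1, the other membrane collagens of pituicyte-like nuclei, stood at 0.549 to 1.45 and 1.51 to 3.25 CPM over the libraries of lactotrope-like nuclei. Lactotrope-like nuclei of the 2 labels fell into different clusters: in 4 clusters 99.9% or more of the nuclei, as rounded, were labelled 22-month, with 64.5 to 387 CPM of Col25a1, and in 2 clusters under 1% were, with 6.77 and 13.4 CPM. Somatotrope-like nuclei did likewise, with 14.5 and 167 CPM in the clusters mostly labelled 22-month and 2.88 to 5.62 CPM in the others, and gonadotrope-like nuclei with 78.5 and 9.83 CPM. The part of this in the result was not tested. Gene models such as Gm9397 and Gm22682 overlap Col25a1 on the same strand.

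**Figure D4:**
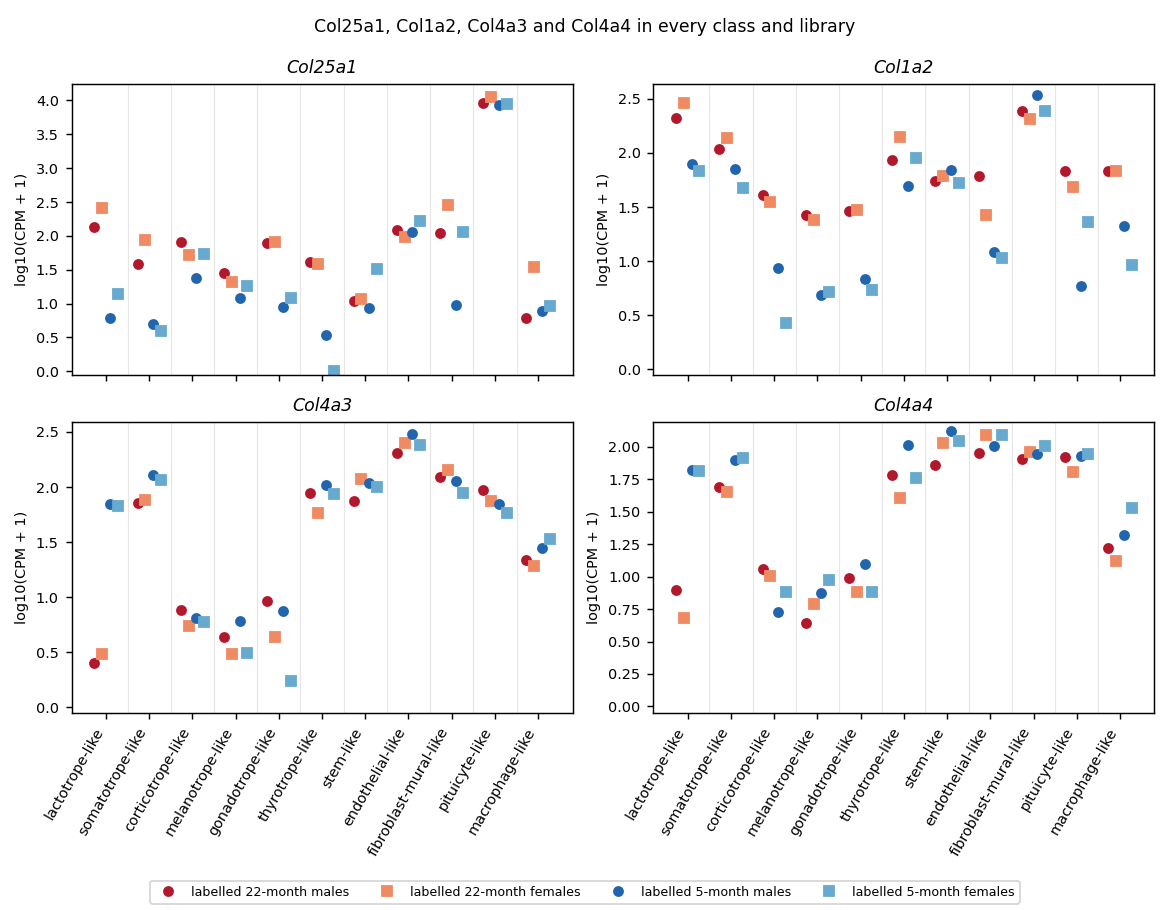
Level of Col25a1, Col1a2, Col4a3 and Col4a4 as log10(CPM + 1) in every class, with 1 point per library and the libraries labelled 22-month left of those labelled 5-month. In lactotrope-like nuclei Col25a1 and Col1a2 are higher, and Col4a3 and Col4a4 lower, in both libraries labelled 22-month.

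Col4a3 and Col4a4 fell with labelled age in lactotrope-like nuclei. Col4a3 had 1.53 and 2.03 CPM in libraries labelled 22-month against 68.7 and 66.7 CPM in those labelled 5-month (-5.07 ± 0.19, adjusted p = 5.55e-07). Col4a4 had 6.83 and 3.79 CPM in libraries labelled 22-month against 65.6 and 63.9 CPM in those labelled 5-month (-3.44 ± 0.21, adjusted p = 1.00e-05). The libraries of each label lay close together, the labels did not overlap, and both calls held with each library left out. The same clusters as for Col25a1 separate the labels, with 1.44 to 2.02 CPM of Col4a3 in the 4 mostly labelled 22-month and 62.4 and 75.3 CPM in the other 2. The 5 somatotrope markers summed to 18509 and 9935 CPM in libraries labelled 22-month against 41420.3 and 26859 CPM in those labelled 5-month in lactotrope-like nuclei, with none higher and 3 lower in both libraries labelled 22-month and none at 0. Their part in the fall of the pair, whose levels in somatotrope-like nuclei follow, was not tested.

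In somatotrope-like nuclei the pair also fell. Col4a3 had 71.0 and 75.6 CPM in libraries labelled 22-month against 126 and 114 CPM in those labelled 5-month (-0.68 ± 0.12, adjusted p = 0.0247), and the call was lost with any 1 library left out (adjusted p 0.138 to 0.338). Col4a4 had 47.8 and 44.2 CPM in libraries labelled 22-month against 77.6 and 81.7 CPM in those labelled 5-month (-0.76 ± 0.13, adjusted p = 0.0191), and the call was lost with any 1 library left out (adjusted p 0.0984 to 0.263). In thyrotrope-like nuclei the changes of -0.43 ± 0.23 for Col4a3 and -0.68 ± 0.25 for Col4a4 did not pass (adjusted p = 0.342 and 0.102).

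Of the X-linked pair, Col4a5 fell in lactotrope-like nuclei, where it had 3.78 and 1.33 CPM in libraries labelled 22-month against 15.4 and 9.81 CPM in those labelled 5-month (-2.20 ± 0.31, adjusted p = 0.00146). This call was lost without the library labelled 22-month females (0.0628), 5-month males (0.153) or 5-month females (0.0761). It also fell in thyrotrope-like nuclei, with 11.0 and 9.51 CPM in libraries labelled 22-month against 34.6 and 22.4 CPM in those labelled 5-month (-1.47 ± 0.44, adjusted p = 0.0292), a call that was lost without the library labelled 22-month females (0.143), 5-month males (0.792) or 5-month females (0.440). Col4a6 was too low to test in either class; in fibroblast-mural-like and pituicyte-like nuclei its changes of -0.01 ± 0.23 and -0.64 ± 0.37 did not pass (adjusted p = 0.994 and 0.465).

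Col1a2 rose with labelled age in 5 of the 6 endocrine classes. In lactotrope-like nuclei it had 208 and 286 CPM in libraries labelled 22-month against 78.7 and 66.3 CPM in those labelled 5-month (1.95 ± 0.17, adjusted p = 9.24e-05), a call that held with each library left out. In somatotrope-like nuclei it had 108 and 136 CPM in libraries labelled 22-month against 70.1 and 46.1 CPM in those labelled 5-month (1.12 ± 0.21, adjusted p = 0.0279). The labels did not overlap in either class, and the somatotrope-like call was lost without the library labelled 22-month males (0.0886), 22-month females (0.284) or 5-month females (0.173).

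The other 3 calls of Col1a2 were in classes where its level was lower. Melanotrope-like nuclei had 25.9 and 22.8 CPM in libraries labelled 22-month against 3.85 and 4.18 CPM in those labelled 5-month (2.60 ± 0.39, adjusted p = 4.00e-09), and the call was lost without the library labelled 22-month females (0.124) or 5-month males (0.0800). Gonadotrope-like nuclei had 28.1 and 28.5 CPM in libraries labelled 22-month against 5.79 and 4.42 CPM in those labelled 5-month (2.57 ± 0.40, adjusted p = 0.000316), and the call was lost without the library labelled 5-month males (0.104) or 5-month females (0.111). Corticotrope-like nuclei had 39.9 and 33.9 CPM in libraries labelled 22-month against 7.66 and 1.65 CPM in those labelled 5-month, from 42 and 15 against 7 and 1 counts (2.86 ± 0.54, adjusted p = 1.62e-05), and the call was lost without the library labelled 22-month males (0.125). Both libraries labelled 22-month lay above both labelled 5-month in each of these classes. DESeq2 called Col1a2 in gonadotrope-like nuclei. It did not in corticotrope-like (adjusted p = 0.701) or melanotrope-like nuclei (adjusted p = 0.0667).

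Lactotrope transcripts, again mostly Prl, moved with these 3 calls and with the somatotrope-like one, for which the marker sums stand beside Col25a1. The 5 lactotrope markers summed to 40835 and 17569.8 CPM in libraries labelled 22-month against 6996 and 3724 CPM in those labelled 5-month in melanotrope-like nuclei. The sums in gonadotrope-like nuclei stand there too, and in corticotrope-like nuclei the sum was 51700.0 and 19865 CPM in libraries labelled 22-month against 7979.7 and 3753 CPM in those labelled 5-month. In melanotrope-like and corticotrope-like nuclei 4 of the 5 markers were higher in both libraries labelled 22-month, and none was at 0. Their part in the 4 calls was not tested. In stem-like nuclei, where the sum was 70306 and 25178 CPM in libraries labelled 22-month against 10881 and 5176 CPM in those labelled 5-month with 1 marker higher and 1 lower, Col1a2 had 54.3 and 59.6 CPM in libraries labelled 22-month against 69.1 and 51.7 CPM in those labelled 5-month (-0.16 ± 0.25, adjusted p = 0.838).

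In the other classes the change of Col1a2 did not pass. It was 0.70 ± 0.23 in thyrotrope-like nuclei (adjusted p = 0.05005, just past 0.05) and 1.98 ± 0.63 in pituicyte-like nuclei (adjusted p = 0.0649). In fibroblast-mural-like nuclei, its highest class, Col1a2 had 240.4 and 206 CPM in libraries labelled 22-month against 341 and 242 CPM in those labelled 5-month (-0.37 ± 0.25, adjusted p = 0.669). The changes of Col1a1 and Col3a1 there were -0.55 ± 0.28 and -0.43 ± 0.26 (adjusted p = 0.480 and 0.602), and a p that misses the threshold does not show that levels were alike.

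Lactotrope-like nuclei had 11 calls among 34 genes tested, against 23.9% of all genes in the class. Col11a1 rose, with 93.0 and 119 CPM in libraries labelled 22-month against 40.3 and 8.25 CPM in those labelled 5-month (2.56 ± 0.47, adjusted p = 0.00512), and the call was lost without the library labelled 22-month females (0.0968). Col24a1 fell, with 1.89 and 0.747 CPM in libraries labelled 22-month against 12.9 and 8.58 CPM in those labelled 5-month (-2.89 ± 0.35, adjusted p = 0.000579), and the call was lost without the library labelled 5-month males (0.0543). Col28a1, a beaded filament chain, fell, with 2.25 and 1.23 CPM in libraries labelled 22-month against 4.94 and 9.25 CPM in those labelled 5-month (-1.81 ± 0.46, adjusted p = 0.0214), and the call was lost without the library labelled 22-month females (0.156) or 5-month females (0.225). The labels did not overlap for any of the 3 genes. Of smaller calls, Col27a1 was higher (0.60 ± 0.13, adjusted p = 0.00973) and Lama4 lower (-1.30 ± 0.38, adjusted p = 0.0388). Both calls were lost with DESeq2 (adjusted p = 0.0526 and 0.29) and with any 1 library left out. The median log2 fold change was 0.07 over the 34 genes and -0.02 over all genes of the class.

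Somatotrope-like nuclei had 7 calls among 33 genes, against 5.37% of all genes. Lama3 fell, with 2.56 and 30.4 CPM in libraries labelled 22-month against 30.5 and 73.6 CPM in those labelled 5-month (-2.04 ± 0.41, adjusted p = 0.0374), and the call was lost without the library labelled 22-month males (0.417), 5-month males (0.364) or 5-month females (0.665). Lama1 fell, with 3.57 and 5.33 CPM in libraries labelled 22-month against 7.61 and 15.5 CPM in those labelled 5-month (-1.30 ± 0.26, adjusted p = 0.0339), and the call was lost with any 1 library left out (adjusted p 0.0569 to 0.414). Lamb3 rose, with 3.23 and 7.69 CPM in libraries labelled 22-month against 1.24 and 1.52 CPM in those labelled 5-month (1.92 ± 0.39, adjusted p = 0.0394), and the call was lost with any 1 library left out (adjusted p 0.0586 to 0.560). For Lama3 the highest library labelled 22-month and the lowest labelled 5-month were nearly equal, while the labels lay further apart for Lama1.

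Thyrotrope-like nuclei had 4 calls among 13 genes, against 5.46% of all genes. Lama3 fell there too, with 4.22 and 36.9 CPM in libraries labelled 22-month against 50.7 and 109 CPM in those labelled 5-month (-2.12 ± 0.31, adjusted p = 1.55e-07), a call that was lost without the library labelled 5-month males (0.666) or 5-month females (0.764). Col27a1 rose, with 8.43 and 42.8 CPM in libraries labelled 22-month against 2.47 and 13.4 CPM in those labelled 5-month, although the labels overlap (1.63 ± 0.51, adjusted p = 0.0409), and the call was lost without the library labelled 22-month females (0.979), 5-month males (0.867) or 5-month females (0.626). Col24a1, whose highest class this is, had 156 and 114 CPM in libraries labelled 22-month against 151 and 204 CPM in those labelled 5-month and did not pass (-0.42 ± 0.20, adjusted p = 0.263).

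Gonadotrope-like nuclei had 4 calls among 15 genes, all higher, against 11.5% of all genes. Lamb1, a beta chain of many laminins, rose, with 47.9 and 46.3 CPM in libraries labelled 22-month against 23.2 and 17.7 CPM in those labelled 5-month (1.32 ± 0.27, adjusted p = 0.00367), and the call was lost without the library labelled 5-month males (0.198) or 5-month females (0.263). Col2a1 rose, with 19.4 and 39.1 CPM in libraries labelled 22-month against 9.41 and 8.84 CPM in those labelled 5-month (1.74 ± 0.38, adjusted p = 0.00558), and the call was lost without the library labelled 22-month females (0.213), 5-month males (0.346) or 5-month females (0.359). Lama1, whose highest class this is, had 299.8 and 589 CPM in libraries labelled 22-month against 596 and 728 CPM in those labelled 5-month and did not pass (-0.52 ± 0.21, adjusted p = 0.115).

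Melanotrope-like nuclei had 3 calls among 14 genes, against 3.78% of all genes, and corticotrope-like nuclei 1 among 9, against 2.37%. In melanotrope-like nuclei Col28a1 fell, with 6.31 and 9.31 CPM in libraries labelled 22-month against 30.2 and 18.8 CPM in those labelled 5-month (-1.69 ± 0.33, adjusted p = 3.71e-05), and the call was lost with any 1 library left out (adjusted p 0.0526 to 0.972). Col11a1 fell, with 27.1 and 6.21 CPM in libraries labelled 22-month against 34.0 and 31.3 CPM in those labelled 5-month (-0.98 ± 0.26, adjusted p = 0.00920), and the call was lost without the library labelled 22-month females (0.993), 5-month males (0.990) or 5-month females (0.794). Col19a1, whose highest class this is, had 136 and 178 CPM in libraries labelled 22-month against 135 and 175 CPM in those labelled 5-month, with the labels overlapping, and did not pass (0.04 ± 0.17, adjusted p = 0.947). Melanotrope-like nuclei lay in 2 clusters, and 1 of them, with Fos, Junb and Fosb among its leading genes, held 0 and 1 nuclei of the libraries labelled 22-month against 275 and 8 of those labelled 5-month. The other held 956 and 324 nuclei of the libraries labelled 22-month against 92 and 364 of those labelled 5-month. Col28a1 stood at 36.0 CPM in the first cluster and 9.73 CPM in the other, Col11a1 at 30.2 and 24.3 CPM, and Col1a2 at 4.09 and 19.7 CPM. The part of this in the calls was not tested.

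Outside the endocrine classes, fibroblast-mural-like nuclei had 3 calls by labelled age among 36 genes, against 2.11% of all genes. Col14a1 rose, with 209.5 and 446 CPM in libraries labelled 22-month against 82.1 and 114 CPM in those labelled 5-month (1.71 ± 0.28, adjusted p = 5.93e-07), and the call was lost without the library labelled 22-month males (0.310) or 22-month females (0.496). Col13a1 fell, with 64.0 and 42.6 CPM in libraries labelled 22-month against 159.9 and 151 CPM in those labelled 5-month (-1.55 ± 0.32, adjusted p = 0.000281), and the call was lost without the library labelled 22-month males (0.429), 22-month females (0.519) or 5-month males (0.0563). Col25a1 rose, with 110.3 and 281 CPM in libraries labelled 22-month against 8.64 and 114 CPM in those labelled 5-month, although the labels overlap (1.70 ± 0.32, adjusted p = 3.54e-05), and the call was lost without the library labelled 22-month males (0.629), 22-month females (0.993) or 5-month males (0.940). DESeq2 called none of the genes in this class. The 9 fibroblast markers summed to 4186 and 3046 CPM in libraries labelled 22-month against 5936 and 4903 CPM in those labelled 5-month, with 1 higher and 6 lower in both libraries labelled 22-month and none at 0. The 9 mural markers summed to 1431 and 1818 CPM in libraries labelled 22-month against 1063 and 1165 CPM in those labelled 5-month, with 6 higher and none lower and none at 0. The subgroup highest in Col14a1 held 25 and 49 nuclei of the libraries labelled 22-month against 6 and 14 of those labelled 5-month. That highest in Col25a1 held 22 and 24 against 22 and 35, and that highest in Col13a1 46 and 16 against 16 and 26. The whole class held 143 and 111 nuclei of the libraries labelled 22-month against 90 and 117 of those labelled 5-month. The part of these in the calls was not tested. Lama2, whose highest class this is, had 2805 and 2878 CPM in libraries labelled 22-month against 3098 and 2814 CPM in those labelled 5-month and did not pass (-0.06 ± 0.20, adjusted p = 0.969).

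Stem-like nuclei, the cell type named in the aim of the series, had 2 calls among 19 genes, against 5.74% of all genes. Lama5 fell, with 53.5 and 30.9 CPM in libraries labelled 22-month against 79.3 and 63.9 CPM in those labelled 5-month (-0.79 ± 0.25, adjusted p = 0.0323), and the call was lost without the library labelled 22-month females (0.679), 5-month males (0.698) or 5-month females (0.275). Col27a1 rose, with 21.7 and 39.4 CPM in libraries labelled 22-month against 7.67 and 16.7 CPM in those labelled 5-month (1.29 ± 0.40, adjusted p = 0.0291), and the call was lost without the library labelled 22-month females (0.587), 5-month males (0.726) or 5-month females (0.167). DESeq2 called neither gene. Among other settings that kept all 4 libraries, the Lama5 call held in 3 of 9 and the Col27a1 call in 5 of 9. The labels did not overlap for either gene. The changes of Lama3 and Col4a1 were 0.23 ± 0.21 and -0.30 ± 0.24, and neither passed. The median log2 fold change was -0.20 over the 19 genes and -0.01 over all genes of the class.

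Pituicyte-like nuclei had 1 call among 15 genes, against 2.68% of all genes. Col11a1 fell, with 108 and 114 CPM in libraries labelled 22-month against 297 and 257 CPM in those labelled 5-month (-1.38 ± 0.27, adjusted p = 0.000159), and the call was lost without the library labelled 22-month males (0.0676), 22-month females (0.440) or 5-month males (0.140). Endothelial-like nuclei had no call among 11 genes and macrophage-like nuclei none among 3 by edgeR or DESeq2, with 1 gene in each at an unadjusted p under 0.05 by edgeR, against 0.185% and 0.0259% of all genes. In endothelial-like nuclei Col4a1 had 529 and 646 CPM in libraries labelled 22-month against 624 and 833 CPM in those labelled 5-month (-0.33 ± 0.21, adjusted p = 0.678), with the labels overlapping. These classes had 409 and 283 nuclei, and the lack of a call does not show that levels were alike.

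Labelled sex gave fewer calls. Of 2 values given for a sex label, the first is from the library labelled 22-month. In the endocrine classes 11 of 118 tests passed, 4 higher and 7 lower in libraries labelled males, and over all genes 1.58%, 0.512% higher and 1.07% lower. In the other classes 5 of 84 passed, 3 higher and 2 lower, and over all genes 1.06%, 0.533% higher and 0.53% lower. The sex-linked transcripts go against the sex label in 1 library of each age label, so a direction here is one between labels and not between sexes. With all 4 libraries but without labelled age as a term, the 11 calls in endocrine classes were 0, with 12 genes then at an unadjusted p under 0.05. Over all genes calls fell to 0 as well in lactotrope-like and gonadotrope-like nuclei. Fits with 1 library left out also lacked that term. A call lost in them, as given below, cannot be put down to the library alone.

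**Figure D5:**
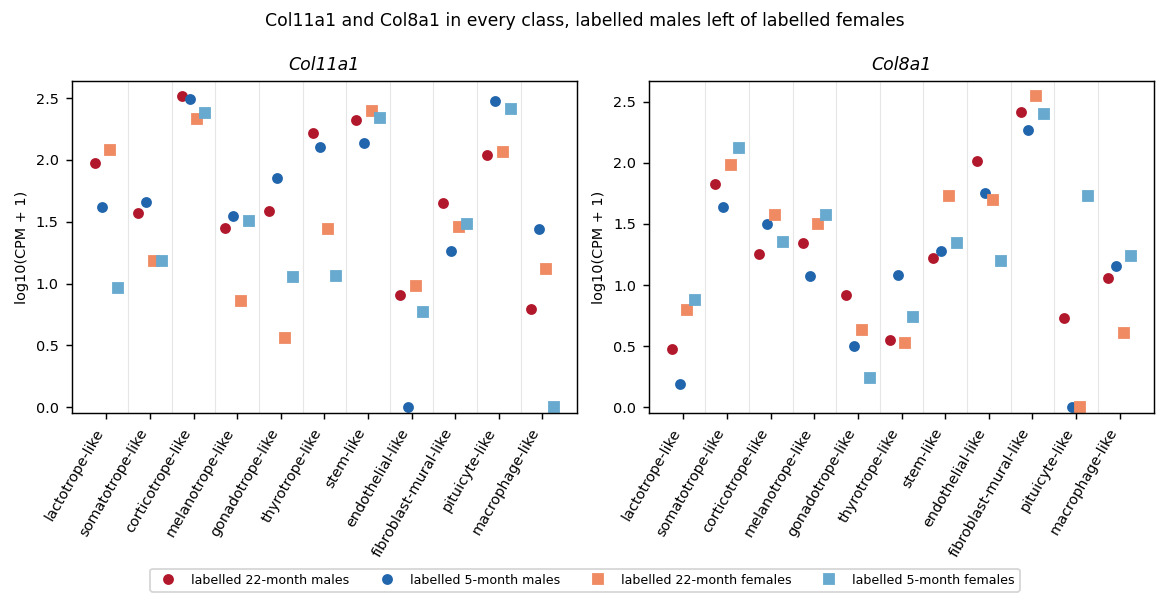
Level of Col11a1 and Col8a1 as log10(CPM + 1) in every class, with 1 point per library and the libraries labelled males left of those labelled females. Col11a1 is higher in both libraries labelled males in gonadotrope-like, thyrotrope-like and somatotrope-like nuclei.

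Col11a1 was higher in libraries labelled males in 4 endocrine classes. In thyrotrope-like nuclei it had 164 and 127 CPM in libraries labelled males against 26.7 and 10.4 CPM in those labelled females (2.88 ± 0.26, adjusted p = 4.70e-14), a call that held with each library left out. In gonadotrope-like nuclei it had 37.3 and 71.0 CPM in libraries labelled males against 2.65 and 10.3 CPM in those labelled females (3.07 ± 0.35, adjusted p = 0.000145), and the call was lost with any 1 library left out (adjusted p 0.747 to 1). In somatotrope-like nuclei it had 36.1 and 44.7 CPM in libraries labelled males against 14.2 and 14.1 CPM in those labelled females (1.55 ± 0.16, adjusted p = 0.0145), the 1 call of the class against 0.553% of all genes, and it was lost with any 1 library left out (adjusted p 0.0860 to 1). Both libraries labelled males were above both labelled females in these 3 classes.

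In melanotrope-like nuclei the labels overlap for Col11a1, with 27.1 and 34.0 CPM in libraries labelled males against 6.21 and 31.3 CPM in those labelled females (0.88 ± 0.27, adjusted p = 0.0372). That call was lost with any 1 library left out. Without the library labelled 22-month females its direction turned (-0.085), in a fit where the difference by labelled age also entered. In lactotrope-like nuclei Col11a1 had 93.0 and 40.3 CPM in libraries labelled males against 119 and 8.25 CPM in those labelled females and did not pass. Col8a1 was lower in libraries labelled males in 2 classes. In melanotrope-like nuclei, with 2 calls against 3.11% of all genes, it had 21.2 and 10.9 CPM in libraries labelled males against 30.5 and 36.5 CPM in those labelled females (-1.01 ± 0.26, adjusted p = 0.00565), and the call was lost without the library labelled 22-month females (0.986), 5-month males (1) or 5-month females (0.547). In stem-like nuclei, with 1 call against 1.27%, it had 15.7 and 17.9 CPM in libraries labelled males against 52.2 and 21.3 CPM in those labelled females (-1.21 ± 0.34, adjusted p = 0.0360), and the call was lost with any 1 library left out (adjusted p 0.539 to 1). In both classes the labels did not overlap. Among other settings that kept all 4 libraries, the melanotrope-like call held in 4 of 8 and the stem-like call in 2 of 9. DESeq2 did not call Col8a1 in stem-like nuclei.

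Gonadotrope-like nuclei had 3 calls, against 2.19% of all genes, of which Col4a2 and Col18a1 were lower in libraries labelled males. Col4a2 had 13.1 and 12.3 CPM in libraries labelled males against 43.0 and 27.3 CPM in those labelled females (-1.52 ± 0.32, adjusted p = 0.0167), and the call was lost with any 1 library left out (adjusted p 0.927 to 1). Its partner Col4a1 had 7.75 and 5.79 CPM in libraries labelled males against 18.5 and 11.1 CPM in those labelled females and did not pass (-1.17 ± 0.43, adjusted p = 0.242). Col18a1 had 21.8 and 49.2 CPM in libraries labelled males against 74.8 and 75.2 CPM in those labelled females (-1.21 ± 0.27, adjusted p = 0.0202), and the call was lost with any 1 library left out (adjusted p 0.927 to 1). For all 3 genes both libraries labelled females were above both labelled males.

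Thyrotrope-like nuclei had 4 calls, against 1.97% of all genes. Besides Col11a1, Col27a1 had 8.43 and 2.47 CPM in libraries labelled males against 42.8 and 13.4 CPM in those labelled females (-2.34 ± 0.50, adjusted p = 0.00137), and the call was lost without the library labelled 22-month females (1) or 5-month males (0.279). Lama3 had 4.22 and 50.7 CPM in libraries labelled males against 36.9 and 109 CPM in those labelled females, with overlapping labels (-1.73 ± 0.32, adjusted p = 0.000140), and the call was lost without the library labelled 22-month males (1) or 5-month females (0.885). Col1a2 had 84.3 and 48.2 CPM in libraries labelled males against 139.7 and 87.9 CPM in those labelled females (-0.80 ± 0.22, adjusted p = 0.0364), and the call was lost with any 1 library left out (adjusted p 0.0617 to 1). All 3 were lower in the library labelled males within each age label. Among other settings that kept all 4 libraries, the Col27a1 call held in 4 of 8, the Lama3 call in 5 of 8 and the Col1a2 call in 2 of 9. DESeq2 did not call Col1a2 here.

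In lactotrope-like nuclei the 1 call, against 0.931% of all genes, was Col25a1, with 136 and 5.08 CPM in libraries labelled males against 261 and 12.9 CPM in those labelled females (-1.07 ± 0.14, adjusted p = 0.0159). The sex labels overlap, and the library labelled males was the lower one within each age label. The call was lost with any 1 library left out, in fits without labelled age as a term. Its direction turned without the library labelled 22-month females (2.63) and without that labelled 5-month males (0.01). These fits compare libraries of unequal age labels, so the difference by labelled age enters and the turn cannot decide the call.

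Fibroblast-mural-like nuclei had 3 calls by labelled sex, against 1.31% of all genes. Col26a1 had 307 and 324 CPM in libraries labelled males against 135 and 199 CPM in those labelled females (1.0 ± 0.26, adjusted p = 0.0140), and the call was lost with any 1 library left out (adjusted p 0.274 to 0.999). Col24a1 had 41.9 and 47.5 CPM in libraries labelled males against 12.5 and 5.31 CPM in those labelled females (2.31 ± 0.64, adjusted p = 0.0292), and the call was lost with any 1 library left out (adjusted p 0.447 to 0.999). Col25a1 had 110.3 and 8.64 CPM in libraries labelled males against 281 and 114 CPM in those labelled females (-1.67 ± 0.32, adjusted p = 5.70e-05), and the call was lost with any 1 library left out (adjusted p 0.394 to 0.999). Libraries labelled males were thus higher for the first 2 genes and, within each age label, lower for Col25a1. In pituicyte-like nuclei, with 1 call against 1.98%, Col23a1 had 1410.1 and 837 CPM in libraries labelled males against 556 and 502 CPM in those labelled females (1.07 ± 0.25, adjusted p = 0.00445), and the call was lost with any 1 library left out (adjusted p 0.182 to 0.906).

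In corticotrope-like, endothelial-like and macrophage-like nuclei neither edgeR nor DESeq2 called any of these genes by labelled sex, with 1, 3 and 0 at an unadjusted p under 0.05 by edgeR, against 1.23%, 0.185% and 0.0% of all genes. In endothelial-like nuclei Lama4 had 345 and 389.9 CPM in libraries labelled males against 686 and 682 CPM in those labelled females, without overlap, and did not pass (-0.80 ± 0.22, adjusted p = 0.527).

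Genes that act with collagens and laminins were counted in the same fits. Of 26 genes for collagen-modifying enzymes and chaperones, 18 were tested in lactotrope-like nuclei, and 7 rose and 2 fell with labelled age, against 23.9% of all genes called in the class, with a median log2 fold change of 0.42 against -0.02 over all genes. DESeq2 called 6 of the 18. Plod2, a lysyl hydroxylase, rose by 1.62 ± 0.14, adjusted p = 8.31e-05, and Colgalt2, which adds galactose to collagen, by 1.62 ± 0.20, adjusted p = 0.000673. P3h1, a prolyl hydroxylase, rose by 1.42 ± 0.18, adjusted p = 0.000796, and Serpinh1, the collagen chaperone, by 0.86 ± 0.18, adjusted p = 0.00964. Loxl1, of the lysyl oxidase family, fell, with a change of -1.06 ± 0.13, adjusted p = 0.000768. In fibroblast-mural-like nuclei none of the 13 tested passed by edgeR or DESeq2, with 2 at an unadjusted p under 0.05 by edgeR, against 2.11% of all genes called. In stem-like nuclei 1 of 16, P3h2, a prolyl hydroxylase, rose (1.67 ± 0.34, adjusted p = 4.19e-05), against 5.74% of all genes, and DESeq2 called none.

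Of 9 other basement membrane genes, 8 were tested in lactotrope-like nuclei, and 3 rose and 2 fell with labelled age, against 23.9% of all genes called in the class, with a median of 0.04. Smoc1 and Smoc2, calcium-binding matrix proteins, rose by 5.86 ± 0.49 and 5.15 ± 0.89, and Sparc, which binds collagen, by 2.13 ± 0.28 (adjusted p = 7.61e-05, 0.00383 and 0.000986). Ntn4, a netrin that binds laminin, and Agrn, a matrix proteoglycan, fell, with changes of -5.26 ± 0.31 and -2.30 ± 0.31 (adjusted p = 8.84e-06 and 0.00105). In gonadotrope-like nuclei 3 of 4 tested rose, Ntn4 by 1.68 ± 0.35, Smoc1 by 2.30 ± 0.20 and Pxdn, which cross-links collagen IV, by 1.74 ± 0.35 (adjusted p = 0.00347, 5.28e-07 and 0.00296), against 11.5% of all genes called. DESeq2 called 1 of these 4 genes.

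Of 13 receptor genes for collagen and laminin, 11 were tested in lactotrope-like nuclei, and none rose and 2 fell with labelled age, against 23.9% of all genes called in the class, with a median of 0.02. Itga11, a collagen receptor chain, changed by -1.20 ± 0.27, adjusted p = 0.0139, and Itga3, a laminin receptor chain, by -0.58 ± 0.16, adjusted p = 0.0290. In stem-like nuclei 1 of 7 tested passed, Itga6, a laminin receptor chain, which rose (1.0 ± 0.22, adjusted p = 0.000261), against 5.74% of all genes. DESeq2 called none of the receptor genes in either class. Fibroblast-mural-like and gonadotrope-like nuclei had none among 7 and 8 tested by edgeR or DESeq2, with 1 and 0 at an unadjusted p under 0.05 by edgeR.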

How the data were processed

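Single-nucleus libraries were made from nuclei of snap-frozen pituitaries with a 10x 3' chemistry, per the labels' protocols. The deposited matrices hold counts of unique molecular identifiers per gene and barcode, made by the authors with Cell Ranger 7.0.1 per the file headers and on mm10 per the submitters' processing notes; the sources used here do not state whether introns were counted, or the strand. Nuclei with under 500 genes or over 5% mitochondrial counts were removed, then doublets marked by Scrublet at 1 threshold for all libraries (11.8 to 16.0% of nuclei). The rest were clustered in scanpy 1.11.5 (python 3.11.15) on 3000 variable genes, 30 principal components and 15 neighbours by Leiden at resolution 1, leaving out collagen, laminin, hormone, sex-linked and mitochondrial genes. Clusters were named from marker lists by a scoring rule settled after the clusters were seen; 838 nuclei stayed unnamed, and classes under 30 nuclei in a library were not compared. Counts were summed by class and library and tested with edgeR 4.0.16 in R 4.3.3 (TMM, filterByExpr, quasi-likelihood, labelled age and sex as terms, Benjamini-Hochberg). DESeq2 1.42.0, other scalings, filters and clusterings, and leaving out each library, were alternatives; a fit without 1 library had the tested label alone as a term, and the lone library of a group was assumed to vary like the others. Scripts were tested on simulated data with 1 spread for all genes of a class. Of 100 simulated 2-fold changes by labelled age, the edgeR fit recovered 67 in lactotrope-like and 78 in somatotrope-like nuclei. It recovered 26 in endothelial-like, 18 in fibroblast-mural-like and 4 in macrophage-like nuclei. Symbols matched GENCODE M21 for 32158 of 32285 features and all 55 genes. Named genes were the chains of collagens I, III, IV, V and VI and of laminins, the 4 genes with the largest ratio to the other classes in each class, and by label up to 8 past the threshold by size of change, with the partner of a collagen IV pair; other genes given for their highest class were added after their values were seen. The genes and lists were chosen with earlier results of these data known. Values of 1 gene are not reported here. Each labelled group was 1 library of pooled glands.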

Additional observations from a re-analysis of the deposited data

How the results depend on the processing

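Of the 30 calls by labelled age in endocrine classes, 15 were counted with DESeq2, 12 without labelled sex as a term and 10 to 26 with 1 library left out. The 6 in other classes were 3 with plain library totals, 0 with DESeq2 (4 at an unadjusted p under 0.05), 0 without labelled sex as a term (14 at an unadjusted p under 0.05), 15 with doublets kept and 1 to 4 with 1 library left out. The 11 calls by labelled sex in endocrine classes were 21 with no filter on low counts, 5 with DESeq2, 0 without labelled age as a term (12 at an unadjusted p under 0.05), 2 with doublets kept and 2 to 3 with 1 library left out. The 5 in other classes were 1 with plain library totals, 3 with no filter, 0 with DESeq2 (5 at an unadjusted p under 0.05), 0 without labelled age as a term (14 at an unadjusted p under 0.05), 1 with doublets kept and 0 to 1 with 1 library left out. Signs turned for Col25a1 by labelled sex in lactotrope-like nuclei without 22-month females (2.63) and without 5-month males (0.01; range with 1 library left out -4.95 to 2.63), and for Col11a1 by labelled sex in melanotrope-like nuclei without 22-month females (-0.085; range -0.085 to 2.22). Of the single-gene values under an alternative, 410 kept their side of the threshold, 271 lost it, 1 passed it, 3 turned and 4 had no adjusted p. Of 52 calls, 7 were kept with each library left out: Col25a1 by labelled age in gonadotrope-like, lactotrope-like and somatotrope-like nuclei, Col4a3, Col4a4 and Col1a2 by labelled age in lactotrope-like nuclei, and Col11a1 by labelled sex in thyrotrope-like nuclei. Every fit with 1 library left out lacked the other label as a term, so the difference by that label entered its values. Over all genes calls changed with the setting too. In lactotrope-like nuclei those by labelled age went from 3925 of 16432 to 1907 of 24728 with DESeq2 and 1977 of 16432 without labelled sex as a term. Those by labelled sex went from 153 of 16432 to 0 without labelled age as a term. What else moved the calls was not tested. The number of genes highest outside the endocrine classes was 44, and 43 to 45 under the alternatives run. No paired analysis was possible because each group was 1 library and the labels carry no replicate numbers. Small classes limit the depth, and 1 residual degree of freedom limits every test.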
